A study of Mus musculus with 4 samples.

Results

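The immediate early genes measured here were Fos, Fosb, Junb, Egr1, Egr2, Egr3, Egr4, Arc, Npas4 and Nr4a1. Each gene was represented by the 1 probe set whose platform annotation gives its symbol and no other, so that the set comprised 10 of the 35556 probe sets on the array. No member was found on a probe set shared with another gene (0 such probe sets). The samples were 4 Affymetrix Mouse Gene 1.0 ST arrays, 2 of ethanol-exposed and 2 of control C57BL/6J mice, and each array held RNA pooled from the whole brains of 3 adult males. Ethanol-exposed pups received subcutaneous ethanol, 2 doses of 2.5 g/kg given 2 hours apart on postnatal days 4 and 7, as a 20% solution in 0.15 M saline, as a model of late gestational exposure in humans. Control pups received saline alone on the same days. Per the labels, both groups were weaned at day 25 and were killed by CO2 asphyxiation at day 60, while the methods of the study give other ages. The pools are called ethanol 2, ethanol 4, control 1 and control 3 after their titles. Title and source name put each array in one group and were followed here, although the entry for treatment names the opposite group on 2 of the arrays, control 1 and ethanol 4. Ethanol-exposed and control mice were littermates, but which pools share litters is not given.

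Immediate early genes are transcribed within minutes of a stimulus, without new protein synthesis, through transcription factors already present in the cell. In neurons, calcium entry through NMDA receptors and voltage-gated channels activates kinases that phosphorylate CREB, which binds the cAMP response element (CRE), and the ternary complex factors that act with SRF at the CArG box. The messages are short-lived, so that their level in brain follows recent activity, arousal and handling. Several of the products are themselves transcription factors that start a second wave of neuronal genes, while Arc acts directly at the synapse.

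The sequence upstream of the start site was read for each member from the RefSeq windows of the GRCm38.p6 assembly, because the CRE and the CArG box are the known entry points of activity to genes of this kind. Windows were given for 7 of the 10 members and none for Egr1, Egr3 and Arc. In the 250 bases before the start, the CRE core TGACG, searched on both strands (CGTCA on the other), was found in at least 1 window of each of these 7 genes, in 9 of their 11 windows, against 17.8% of the 32851 windows of all genes. The full palindrome, TGACG followed by TCA, which holds the core on both strands, was found in 0 of the 7 genes and in 1.55% of all windows. The CArG box was searched as CC, a fixed run of A or T alone, and GG, with no mismatch allowed. It was found in 1 gene, Egr2, in 4 of its 5 windows, and in 1.47% of all windows. Boxes with a mismatch, or farther than 250 bases from the start, were outside this search. A match is a match of letters in these windows, and no binding was measured in these samples. The stretches of 30 bases below show the match in each gene, 5′ to 3′ on the gene's own strand, with the CRE core, or for Egr2 the CArG box and the core, in capitals.
Fos: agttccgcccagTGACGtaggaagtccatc
Fosb: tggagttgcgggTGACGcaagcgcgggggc
Junb: gcttcctgacagTGACGcgagccgcctcct
Egr2: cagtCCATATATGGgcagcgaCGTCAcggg
Egr4: tttggtcatttaCGTCAcggcgccagggcc
Npas4: gaCGTCAcgggaTGACGtcggaagtctggg
Nr4a1: cccctctccatgCGTCAcggagcgcttaag
These lie on chr12:85473812-85473841 (Fos, plus strand), chr7:19310088-19310117 (Fosb, minus), chr8:84978837-84978866 (Junb, minus), chr10:67537793-67537822 (Egr2, plus), chr6:85513681-85513710 (Egr4, minus), chr19:4990123-4990152 (Npas4, minus) and chr15:101266794-101266823 (Nr4a1, plus). The core nearest the start began 66 bases before the start in Fos, 60 in Fosb, 106 in Junb, 55 in Egr2, 109 in Egr4 and 40 in Nr4a1. For Egr2, with a core in 3 of its 5 windows, the stretch and distance are from a window with the most cores. Npas4 had a pair of cores on opposite strands, 179 and 169 bases before its start. The whole upstream window is shown for Npas4 and Nr4a1 as examples. They were picked for their opposite signs of difference between the groups (below). Neither difference passed adjustment (limma, adjusted p = 0.247 and 0.300), and a link between the arrangement of cores and the difference was not tested. The Npas4 window is chr19:4989972-4990221, minus strand, with 2 cores close together, and the Nr4a1 window is chr15:101266596-101266845, plus strand, with 4 cores spread along it.
Npas4: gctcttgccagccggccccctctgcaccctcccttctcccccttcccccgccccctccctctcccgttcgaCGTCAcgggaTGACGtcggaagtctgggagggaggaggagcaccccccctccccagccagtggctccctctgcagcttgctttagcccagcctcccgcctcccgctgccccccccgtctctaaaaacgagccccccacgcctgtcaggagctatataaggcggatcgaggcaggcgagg
Nr4a1: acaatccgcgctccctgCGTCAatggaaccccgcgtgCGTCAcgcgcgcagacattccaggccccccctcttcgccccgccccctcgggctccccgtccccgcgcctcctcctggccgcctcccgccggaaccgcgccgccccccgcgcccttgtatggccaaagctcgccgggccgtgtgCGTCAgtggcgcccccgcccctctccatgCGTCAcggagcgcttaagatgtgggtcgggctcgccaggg

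The deposited values are log2 signals normalized by the authors, and every level below is on that scale, as is every difference (ethanol minus control). Array medians over all probe sets were 6.33 and 6.38 in ethanol 2 and ethanol 4, against 6.61 and 6.51 in control 1 and control 3, and 80.2% of all probe sets were lower in ethanol. The 4 arrays were therefore also brought to common quantiles, which removes this offset, and those values are given beside the deposited ones as quantile normalized. Neuronal transcripts were abundant on each array, with the vesicle release genes Snap25 at 13.3 and Syt1 at 12.9 to 13.1. The pituitary hormone gene Gh stood at 6.53 in ethanol 2 and 12.26 in ethanol 4, against 12.24 and 12.19 in control 1 and control 3, so ethanol 2 stood apart from the other 3 pools in pituitary RNA. In bulk RNA, fewer cells that express a gene and less RNA per cell cannot be told apart. The number of arrays, 2 a group, limits the precision, and p-values measure the spread between pools alone.

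Among the AP-1 genes, none passed the limits of the study, a 1.2-fold difference with an unadjusted p under 0.05, in the limma fit of all probe sets. Fos, whose product pairs with Jun proteins to form AP-1, had a log2 signal of 5.92 in ethanol 2 and 5.64 in ethanol 4, against 5.62 in control 1 and 5.65 in control 3. Ethanol 2 was thus the one high pool, and ethanol 4 lay between the controls. The difference was 0.15 ± 0.12 (SE; limma, adjusted p = 0.491), and it was 0.01 without ethanol 2 and 0.28 without ethanol 4. Fosb, a relative of Fos whose splice variant deltaFosB builds up with repeated stimulation, measured 6.56 in ethanol 2 and 6.49 in ethanol 4, against 6.24 in control 1 and 6.59 in control 3. Control 1 was the low pool, and the other 3 spanned less than the gap to it. The difference was 0.11 ± 0.14 (adjusted p = 0.649), with 0.28 without control 3 and -0.06 without control 1. Junb, a partner of the Fos proteins, measured 5.28 in ethanol 2 and 5.09 in ethanol 4, against 5.35 in control 1 and 5.26 in control 3. The groups overlapped, ethanol 4 was lowest, and the difference was -0.12 ± 0.11 (adjusted p = 0.515). It was -0.22 without ethanol 2 and -0.024 without ethanol 4. The lower quartile of all probe sets was 5.25 in ethanol 2 and 5.33 in ethanol 4, against 5.50 in control 1 and 5.42 in control 3, so Junb was a dim probe set, below the quartile on 3 arrays, and Fos lay between the quartile and the median of each array. After quantile normalization Fos and Fosb were higher in both ethanol pools than in both control pools, by 0.32 and 0.31, neither past the limits (adjusted p = 0.415 and 0.471), and the Junb difference was 0.04.

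**Figure D1:**
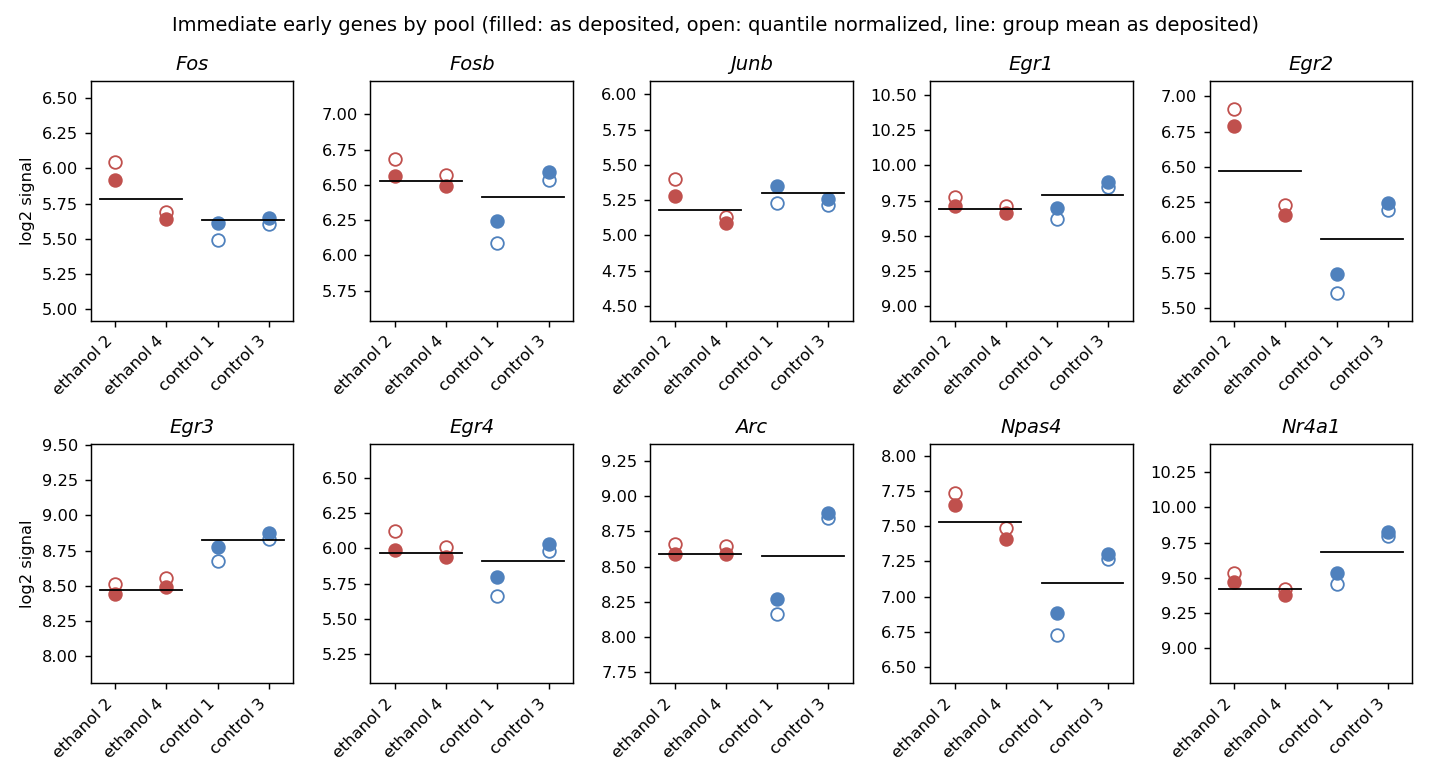
Log2 signal of each of the 10 immediate early genes in the 4 pools, as deposited (filled) and after quantile normalization (open), with ethanol 2 and ethanol 4 left of control 1 and control 3 and a line at each deposited group mean. Control 1 is the lowest pool in Fos, Fosb, Egr2, Egr4, Arc and Npas4, and the filled points of the groups do not overlap in Egr3, Npas4 and Nr4a1.

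The 4 Egr genes encode zinc finger transcription factors of closely alike DNA-binding specificity. Their signals did not place the pools in one order, but control 1 lay below control 3 in each. Control 1 minus control 3 was -0.18 in Egr1, -0.50 in Egr2, -0.10 in Egr3 and -0.23 in Egr4. The median over all probe sets was 0.06. Ethanol 2 lay above ethanol 4 in Egr1, Egr2 and Egr4 and below it in Egr3. Egr3, which is needed for hippocampal memory and muscle spindle development in mice, was lower in ethanol, at 8.44 in ethanol 2 and 8.49 in ethanol 4, against 8.77 in control 1 and 8.87 in control 3. Both ethanol pools lay below both control pools, with a gap between the groups wider than the spread within either. The difference of -0.35 ± 0.09 passed the limits (limma, unadjusted p = 0.0131) and failed adjustment over all probe sets (adjusted p = 0.174). It ran between -0.30 and -0.40 with each pool left out. The unadjusted p in limma was 0.0637 without ethanol 2 and 0.0631 without control 3, so that the call was lost in both cases, with fewer arrays in the fit. After quantile normalization the groups were still apart, and the difference was -0.22 ± 0.09 (adjusted p = 0.401), no longer past the limits. In that scaling it ran between -0.14 (without control 3) and -0.30 (without control 1) with each pool left out. The deposited difference of the median probe set was -0.15, and quantile normalization brought it to 0.00. Grouped by the treatment entry, Egr3 differed by -0.075 in the deposited values.

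Egr2, known for its part in hindbrain patterning and in myelination by Schwann cells, measured 6.79 in ethanol 2 and 6.16 in ethanol 4, against 5.74 in control 1 and 6.24 in control 3. It had the widest range over the pools among the members, 1.05, and the groups overlapped, with ethanol 2 high and control 1 low. The difference was 0.48 ± 0.28 (adjusted p = 0.348). It depended on single pools, with 0.17 without ethanol 2, 0.80 without ethanol 4, 0.23 without control 1 and 0.73 without control 3, and it passed the limits in the second of these (unadjusted p = 0.0434). Egr1, the member used most often with Fos to map active neurons, measured 9.71 in ethanol 2 and 9.67 in ethanol 4, against 9.70 in control 1 and 9.88 in control 3. Both ethanol pools and control 1 lay together and control 3 above them, with a difference of -0.10 ± 0.10 (adjusted p = 0.568), which was -0.19 without control 1 and -0.0088 without control 3. Egr4 measured 5.99 in ethanol 2 and 5.94 in ethanol 4, against 5.80 in control 1 and 6.03 in control 3. Both ethanol pools lay between the control pools, and the difference was 0.05 ± 0.11 (adjusted p = 0.797). After quantile normalization Egr2 and Egr4 were higher in both ethanol pools than in both control pools, by 0.67 and 0.24 (adjusted p = 0.422 and 0.485), while the Egr1 difference was 0.01.

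Npas4, a basic helix-loop-helix factor that in neurons is induced by calcium entry and regulates inhibitory synapses, was the member with the largest positive difference after Egr2. It measured 7.65 in ethanol 2 and 7.41 in ethanol 4, against 6.88 in control 1 and 7.31 in control 3. Both ethanol pools lay above both control pools, but ethanol 4 and control 3 were closer to each other than either was to the other pool of its group. The difference was 0.43 ± 0.18 (adjusted p = 0.247) and missed the limits (unadjusted p = 0.065). It was 0.22 without control 1 and 0.65 without control 3, and in the second case it passed the limits. After quantile normalization Npas4 was past the limits, at 0.61 ± 0.21 (limma, unadjusted p = 0.0377, adjusted p = 0.348), with 7.74 and 7.49 in ethanol 2 and ethanol 4, against 6.73 and 7.27 in control 1 and control 3. That call was lost without control 1 (0.35), ethanol 2 (0.48) or ethanol 4 (0.74), and without control 3 the difference was 0.89. Grouping by the treatment entry gave a difference of -0.092 in the deposited values.

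Nr4a1, an orphan nuclear receptor that controls metabolic genes and spine density, measured 9.47 in ethanol 2 and 9.38 in ethanol 4, against 9.54 in control 1 and 9.83 in control 3. Both ethanol pools lay below both control pools, by a narrow gap to control 1. The difference was -0.26 ± 0.13 (adjusted p = 0.300), and it was -0.11 without control 3 and -0.40 without control 1, where it passed the limits (unadjusted p = 0.0308). After quantile normalization the groups overlapped and the difference was -0.15 ± 0.14 (adjusted p = 0.668). Arc, whose message travels to active dendrites and whose protein drives removal of AMPA receptors from synapses, measured 8.59 in ethanol 2 and 8.59 in ethanol 4, against 8.27 in control 1 and 8.88 in control 3. The ethanol pools had nearly the same value, midway between control pools that lay 0.61 apart. The difference of 0.02 ± 0.22 (adjusted p = 0.969) was -0.29 without control 1 and 0.32 without control 3.

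**Figure D2:**
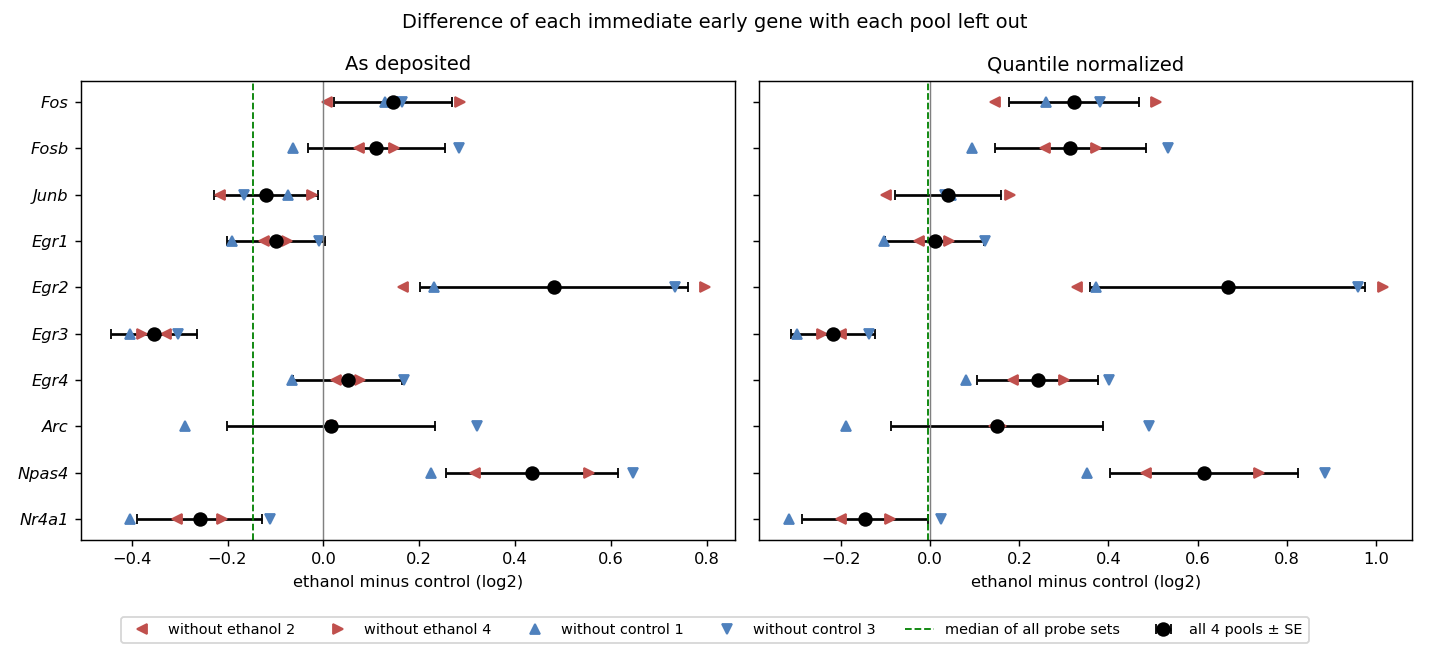
Difference between ethanol and control (log2) of each member with all 4 pools (black, with the SE) and with each pool left out (triangles), as deposited in the left panel and after quantile normalization in the right panel, which has its own scale; the dashed line is the median over all probe sets. Leaving out control 1 or control 3 moves Arc between -0.29 and 0.32 in the left panel, while the Egr3 values stay between -0.40 and -0.30.

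Counted over the set, 1 of the 10 members was past the limits and lower in ethanol (Egr3), against 17.9% of all probe sets, and 0 were past the limits and higher, against 2.23%. Both ethanol pools lay below both control pools in 2 members (Egr3 and Nr4a1), against 52.7% of all probe sets, and above them in 1 (Npas4), against 7.25%. Benjamini-Hochberg adjustment left 0 members under 0.05, and 0.00281% of all probe sets (1 of 35556). The unadjusted p (limma) was under 0.05 in 1 member, Egr3, which is the one counted past the limits. The median difference of the members was 0.03, against -0.15 over all probe sets. In ethanol 4 members were lower and 6 higher, against 80.2% and 19.8% of all probe sets. Without control 1, 6 members were apart and lower and 1 apart and higher, against 60.1% and 17.0% of all probe sets. Without ethanol 2 these were 4 and 1, against 61.4% and 16.9%. Without control 3 they were 3 and 6, against 70.7% and 11.8%. Without ethanol 4 they were 2 and 3, against 69.8% and 12.3%. After quantile normalization, 0 members were past the limits and lower and 1 higher (Npas4), against 5.87% and 5.71% of all probe sets. Groups were then apart in 1 member lower in ethanol (Egr3) and 5 members higher (Fos, Fosb, Egr2, Egr4 and Npas4), against 24.9% and 24.0% of all probe sets. The median difference of the members was then 0.20, against 0.00 over all probe sets, with all 4 pools. With a pool left out of that scaling, this median was 0.06 without control 1 and 0.14 without ethanol 2. It was 0.24 without ethanol 4 and 0.39 without control 3.

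Set against each other over the pools, control 1 was the lowest pool in 6 of the 10 (Fos, Fosb, Egr2, Egr4, Arc and Npas4), whereas it was the lowest in 7.88% of all probe sets. After quantile normalization it was the lowest in 7, with Egr1 added, against 27.1% of all probe sets, and after centring each array on its median in 8, against 40.3%. Control 3 was the highest pool in 6 members (Fosb, Egr1, Egr3, Egr4, Arc and Nr4a1), against 25.2% of all probe sets, and ethanol 2 was the highest in 3 (Fos, Egr2 and Npas4), against 8.50%. Control 1 was the highest pool in Junb, against 52.9% of all probe sets, and lay above both ethanol pools in Egr3 and Nr4a1 as well. After quantile normalization the highest pool in Junb was ethanol 2. Fosb, Egr4 and Arc placed the pools in one order, control 3 above ethanol 2, ethanol 4 and control 1, which 0.984% of all probe sets did. Fos and Egr2 placed them as ethanol 2, control 3, ethanol 4 and control 1, which 0.824% of all probe sets did. After quantile normalization Fos, Fosb, Egr2, Egr4 and Npas4 had one order, both ethanol pools above control 3 and control 3 above control 1, with ethanol 2 highest, against 6.94% of all probe sets. These counts describe 4 pools, members are not independent replicates, and 4 pools are too few for a correlation.

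The mean of the members, each centred on its own average, was 0.10 in ethanol 2 and -0.06 in ethanol 4, against -0.15 in control 1 and 0.11 in control 3. After quantile normalization it was 0.20 in ethanol 2 and 0.00 in ethanol 4, against -0.27 in control 1 and 0.07 in control 3. The control pools thus bracketed the ethanol pools as deposited, and control 1 was low on both scales. The members differed more between the 2 control pools than probe sets in general did, with a median size of 0.26 against 0.12 over all probe sets. Between the 2 ethanol pools the median size was 0.08 in the members, against 0.12 over all probe sets. Arc (control 1 minus control 3, -0.61), Egr2 (-0.50), Npas4 (-0.42) and Fosb (-0.35) had the widest gaps between controls. Between the ethanol pools, Egr2 (ethanol 2 minus ethanol 4, 0.63), Fos (0.28) and Npas4 (0.24) had the widest.

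Each profile was then divided into the part between the groups, the part between the controls and the part between the ethanol pools, as shares of its sum of squares. The part between the groups took 95.2% in Egr3, 61.7% in Npas4 and 58.6% in Nr4a1, whose groups were apart. The part between the controls took 99.9% in Arc, 87.7% in Egr4, 80.2% in Fosb and 59.9% in Egr1. The part between the ethanol pools took 63.6% in Fos and 49.8% in Junb, and Egr2 was spread over all 3, with 41.6% between the groups, 22.8% between the controls and 35.6% between the ethanol pools. The median share between the groups was 37.6% in the members, against 57.3% over all probe sets, and that between the controls 33.3%, against 13.7%. After quantile normalization the order of the first pair was reversed, with 49.5% in the members against 43.2% over all probe sets. That between the controls was then 35.2%, against 17.4%. In single members the share between the groups was then 78.1% in Egr3, 68.2% in Npas4 and 59.8% in Fos. The share between the controls was 91.0% in Arc and 92.6% in Egr1.

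**Figure D3:**
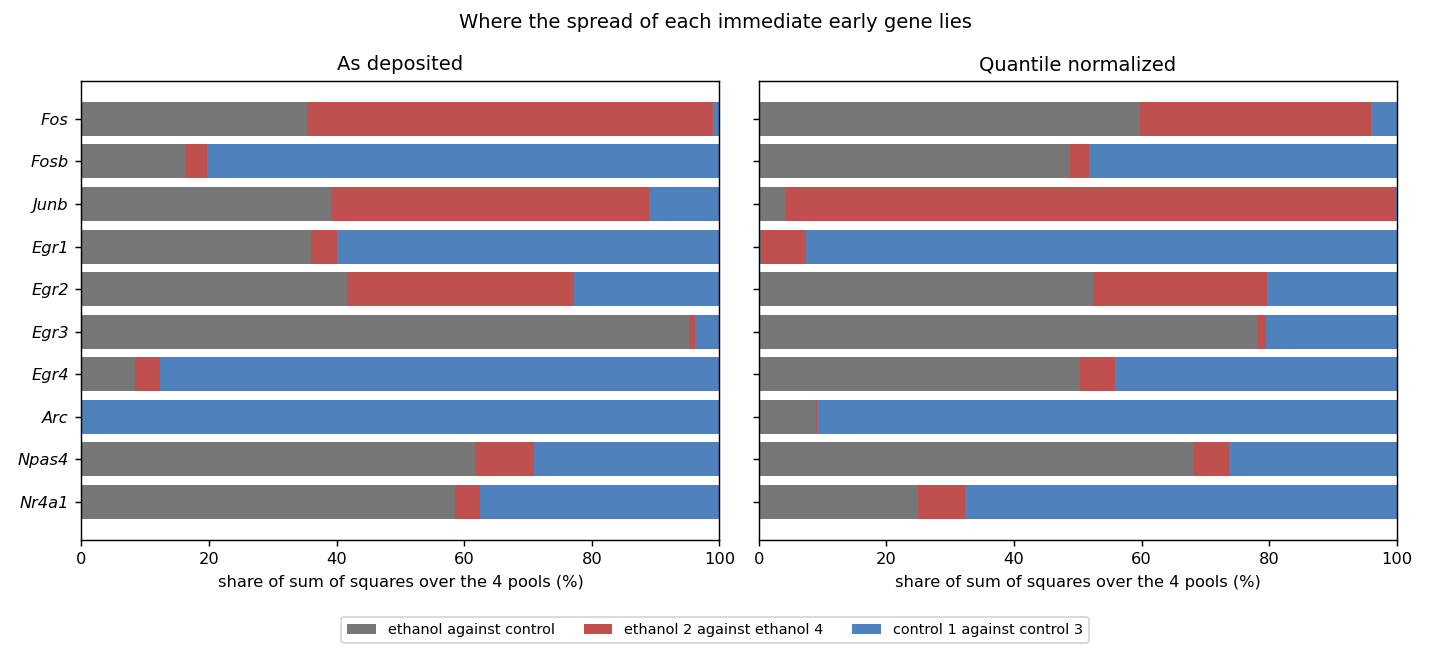
Share of each member's sum of squares over the 4 pools (percent) that lies between the groups, between the 2 control pools and between the 2 ethanol pools, as deposited and after quantile normalization. Egr3 lies mostly between the groups (95.2% as deposited) and Arc almost wholly between the controls (99.9%).

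Markers of other regions were set beside the members. The summed signal of the 5 olfactory bulb markers (5 of 5 measured) had a log2 of 9.52 in ethanol 2 and 9.81 in ethanol 4, against 9.31 in control 1 and 9.56 in control 3. Th, the dopamine synthesis enzyme, measured 8.27 and 8.73 in ethanol 2 and ethanol 4, against 7.90 and 8.16 in control 1 and control 3. Control 1 was the lowest pool in this sum as it was in 6 members, but the sum rests on Th, Cdhr1 and Doc2g, which were lowest in control 1, while Eomes and Sp8 were not. The highest pool in the sum was ethanol 4, which was the highest in none of the members. In the same list Cdhr1 was past the limits and higher and Eomes past the limits and lower in ethanol. The summed log2 signal of 6 striatal markers (of 8) was 13.15 and 13.19 in ethanol 2 and ethanol 4, against 13.24 and 13.26 in control 1 and control 3. After quantile normalization the groups overlapped, at 13.17 and 13.22 against 13.19 and 13.25. For 7 markers (of 8) of excitatory neurons of the cortex and hippocampus it was 12.69 and 12.79, against 12.88 and 12.87. Quantile normalization gave 12.71 and 12.83, against 12.84 and 12.88. These 2 sums rest largely on the bright genes Penk (12.28 to 12.39) and Slc17a7 (11.83 to 12.04). The 6 pituitary markers (6 of 6 measured) had a summed log2 signal of 8.31 in ethanol 2 and 12.83 in ethanol 4, against 12.72 and 12.69 in control 1 and control 3. This sum rests on Gh, Prl and Cga, which were low in ethanol 2, the highest pool in Fos, Egr2 and Npas4. Pomc measured 5.48 and 5.50 in ethanol 2 and ethanol 4, against 5.95 and 6.09 in control 1 and control 3, and Tshb 5.62 and 5.70, against 5.90 and 5.73. The part that RNA of these regions had in the levels of the members was not tested.

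Genes outside the set in the same response were next examined in 4 further lists. Of 16 other transcription factors induced as immediate early genes, all 16 measured, 3 were past the limits and lower in ethanol and 0 higher. The shares of all probe sets were 17.9% and 2.23%, and the median difference of the list was -0.12. Jun, the central partner in AP-1, measured 8.93 in ethanol 2 and 8.75 in ethanol 4, against 9.29 in control 1 and 9.19 in control 3, a difference of -0.40 ± 0.11 (limma, adjusted p = 0.175). It was past the limits after quantile normalization too (-0.28). Atf3, a stress-induced factor of the CREB family, differed by -0.35 (adjusted p = 0.18) and Csrnp1 by -0.47 (adjusted p = 0.192), and neither was past the limits after quantile normalization. In that scaling 1 member of the list was past the limits in each direction, Jun lower and Ier2 higher (0.30), against 5.87% and 5.71% of all probe sets.

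Of 23 effectors and feedback regulators, 22 were measured. Among these, 5 were lower past the limits and 0 higher, against 17.9% and 2.23% of all probe sets. The median difference was -0.17. Dusp5, a nuclear phosphatase that shuts off ERK, measured 6.82 in ethanol 2 and 6.84 in ethanol 4, against 7.29 in control 1 and 7.32 in control 3, a difference of -0.48 ± 0.08 (limma, adjusted p = 0.164). Nab2, a corepressor that binds Egr proteins, measured 8.74 in ethanol 2 and 8.86 in ethanol 4, against 9.33 in control 1 and 9.18 in control 3, a difference of -0.46 ± 0.10 (adjusted p = 0.171). Both were past the limits after quantile normalization, at -0.28 and -0.34. Dusp4, another ERK phosphatase, differed by -0.46 and Per1, a clock gene that activity also induces, by -0.31 (adjusted p = 0.173 and 0.177), and neither was past the limits after quantile normalization. Plk3 was past the limits in that scaling alone, and higher (0.32). There 2 of the 22 genes were lower and 1 higher past the limits, against 5.87% and 5.71% of all probe sets.

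The second wave of activity-regulated neuronal genes had 2 of 14 members lower past the limits and 0 higher. The shares of all probe sets were 17.9% and 2.23%. The lower ones were Vgf (-0.48, limma, adjusted p = 0.173) and Syt4 (-0.35, adjusted p = 0.191), and the median difference was -0.17. Vgf, a secreted neuropeptide precursor, measured 8.11 in ethanol 2 and 8.32 in ethanol 4, against 8.76 in control 1 and 8.63 in control 3. Both genes were past the limits after quantile normalization, at -0.35 and -0.29. This made 2 of 14 lower and 0 higher there, against 5.87% and 5.71% of all probe sets. Bdnf, the neurotrophin of this list, measured 5.54 and 5.74 in ethanol 2 and ethanol 4, against 5.62 and 5.59 in control 1 and control 3, so the groups overlapped. Of 26 upstream signalling genes, 23 were measured, 4 were lower past the limits (Cacna1c, Srf, Grin2b and Elk4, by -0.27 to -0.39) and 0 higher, with a median difference of -0.15. Cacna1c, the pore of the L-type calcium channel Cav1.2, and Grin2b, an NMDA receptor subunit, were past the limits after quantile normalization as well. Srf and its partner Elk4 were not, and Ep300, a coactivator of CREB, was past them and higher (0.27). This made 2 of 23 lower and 1 higher in that scaling, against 5.87% and 5.71% of all probe sets. The medians of these 4 lists lay close to that of all probe sets (-0.15) in the deposited values, and the shares lower past the limits are read against 17.9%. With each pool left out, the median difference was -0.10 to -0.16 in the transcription factors and -0.14 to -0.23 in the effectors. It was -0.13 to -0.18 in the second wave and -0.10 to -0.15 in the upstream genes. Over all probe sets it was -0.11 to -0.18. Grouping by the treatment entry left 0 genes of these lists past the limits, and 0.686% of all probe sets lower and 0.917% higher. After quantile normalization the medians were 0.04, -0.02, -0.03 and -0.09 in the order given, against 0.00.

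**Figure D4:**
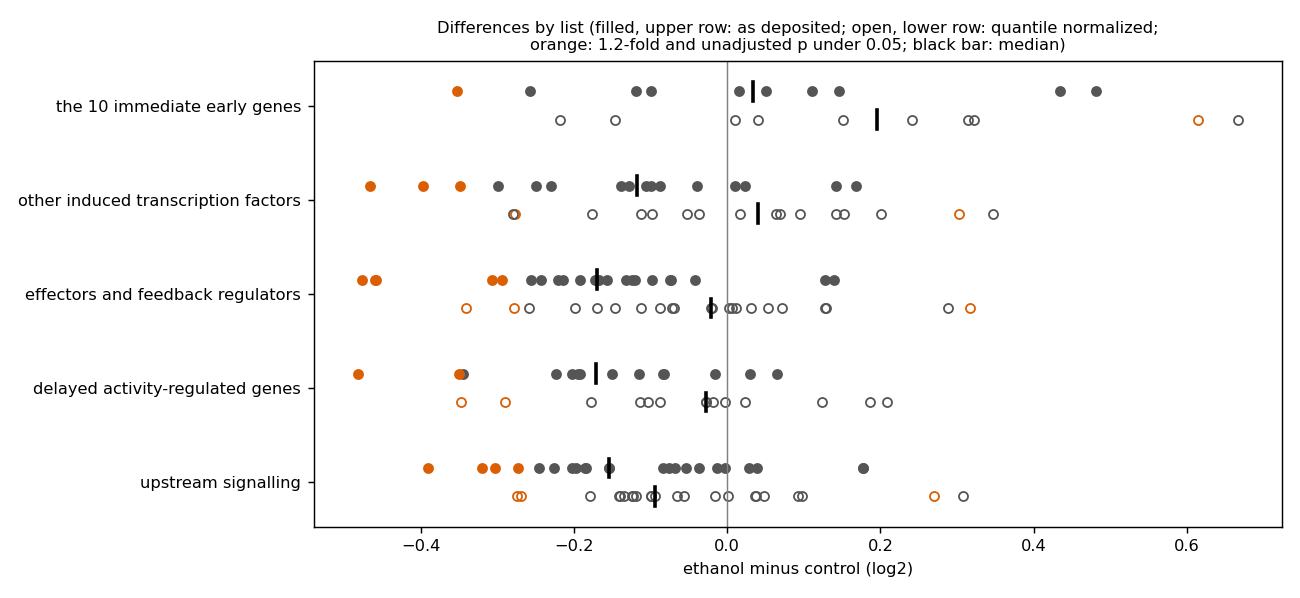
Difference between ethanol and control (log2) of each gene of the immediate early set and of the 4 further lists, as deposited (filled, upper row) and after quantile normalization (open, lower row), with a black bar at each median and the genes past the limits in orange. The deposited median of the immediate early set is 0.03 and those of the further lists are -0.12 to -0.17.

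The probe sets whose profile over the 4 pools lay closest to the mean profile of the members were sought among 13286 probe sets that name 1 gene and have a mean log2 of 6 or more. By Euclidean distance between centred log2 profiles these were Usp37 (0.02), Slc22a4 (0.03), Hook1 (0.03), Mtpap (0.04) and Rbm12b2 (0.04). Usp37, a deubiquitinase, measured 6.97 in ethanol 2 and 6.82 in ethanol 4, against 6.73 in control 1 and 6.97 in control 3. The likeness is over 4 arrays, which share their RNA pools with the members, and it was fixed by the selection.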

How the data were processed

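RNA pooled from 3 whole brains was hybridized to each of 4 Mouse Gene 1.0 ST arrays. The authors summarized probes to gene level in Partek software (6.6 in the submitters' processing notes, while the methods name another version) by RMA with adjustment for GC content, and deposited log2 values. The methods also state quantile normalization at this step, but the medians and quartiles of the deposited arrays differ. Scanner files and detection calls were not used here. Values were used as deposited and after quantile normalization. Groups were taken from title and source name. All 35556 probe sets were fitted with limma (version 3.58.1, R 4.3.3; 2 residual and 2.57 prior degrees of freedom), two-sided, with Benjamini-Hochberg adjustment over all of them, and the script was tested on simulated data. Limits were 1.2-fold and an unadjusted p of 0.05. Symbols came from the platform annotation, and all 10 members matched the RefSeq table by Entrez ID. Upstream sequences were RefSeq's (GRCm38.p6).

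The members, lists and tests were chosen with earlier results of these data known. All members are named. Named besides are, from each further list, the genes past the limits, at most 4 by smallest p, and the 5 probe sets most like the members' mean profile. Ier2, Plk3, Ep300, Bdnf and the markers named were chosen after their values were seen. A gene with several probe sets in a further list took the one with the highest mean. Alternatives were a median centring, the treatment entry as grouping, the 2 arrays on which all labels agree, each pool left out, a filter on mean log2 signal (5 or more), an intensity trend, the ANOVA of the methods, both possible pairings and a 1.5-fold limit. Quantile normalization with each pool left out, and the further lists with each pool left out and by the treatment entry, were added after seeing the data. With a pool left out, the lone pool of its group was assumed to vary like the other group.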

Additional observations from a re-analysis of the deposited data

How the results depend on the processing

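Under quantile normalization and under centring of each array on its median alike, 0 members were past the limits and lower, 1 past the limits and higher, 1 apart and lower and 5 apart and higher. Under median centring these are read against 3.91%, 9.09%, 14.8% and 36.6% of all probe sets. The difference turned positive in Junb (0.041 and 0.092) and Egr1 (0.0098 and 0.11) under these scalings. Grouping by the treatment entry left 0 members past the limits and lower and 0 apart and lower, against 0.686% and 9.07% of all probe sets. It turned Fosb to -0.14, Junb to 0.14, Egr4 to -0.092, Arc to -0.30 and Npas4 to -0.092. The sign was kept in Fos (0.12), Egr1 (-0.067), Egr2 (0.063), Egr3 (-0.075) and Nr4a1 (-0.099). Between ethanol 2 and control 3 alone, on which all labels agree, Fosb was -0.027, Junb 0.021, Egr4 -0.041 and Arc -0.29, each with its sign changed. Fos was 0.27, Egr1 -0.17, Egr2 0.55, Egr3 -0.43, Npas4 0.34 and Nr4a1 -0.36, with signs unchanged. A 1.5-fold limit left 0 members past it and lower, against 3.63%.

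With each pool left out, 0 to 2 members were past the limits and lower, 0 to 1 past the limits and higher, 2 to 6 apart and lower and 1 to 6 apart and higher, with fewer arrays in each fit. The shares of all probe sets were 9.80% to 18.2%, 2.01% to 2.73%, 60.1% to 70.7% and 11.8% to 17.0%. Members ranged from -0.063 to 0.28 (Fosb), -0.066 to 0.17 (Egr4) and -0.29 to 0.32 (Arc), each negative without control 1. With quantile normalization and each pool left out, 0 members were past the limits and lower, 0 to 5 past the limits and higher (5 without control 3), against 4.52% to 6.39% and 4.64% to 5.76% of all probe sets, and the median difference was 0.06 to 0.39. Egr3 was then -0.30 to -0.14, Junb -0.10 to 0.18 (0.047 without control 1 and 0.033 without control 3), Egr1 -0.10 to 0.12 (0.042 without ethanol 4), Arc -0.19 to 0.49 and Nr4a1 -0.32 to 0.023.

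The labels do not say which pools match. A replicate block of control 1 with ethanol 4 and control 3 with ethanol 2 gave 2 members past the limits and higher (Egr2 and Npas4), against 2.34% of all probe sets, and the opposite block, the intensity trend, the filter on mean signal and the ANOVA changed no count of members by over 1.5 times. Over all probe sets, however, the ANOVA called 8.11% lower and 0.765% higher, against 17.9% and 2.23% in limma. The causes of these changes were not tested. Junb lay near the lower quartile of the arrays, and no detection calls were used.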
